A study of Drosophila melanogaster with 3 samples.

Results

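The forkhead family shares a winged-helix DNA-binding domain, and foxo is one of its members. Examined here was where foxo itself was found at 10 other forkhead genes of Drosophila melanogaster: fkh, FoxK, FoxP, FoxL1, slp1, slp2, croc, bin, jumu and CHES-1-like. The genes were listed by name, and a gene was called bound when the summit (highest point) of an optimal peak lay inside it or within 1000 bp of its ends. Optimal peaks are those that passed the authors' test of reproducibility between replicates. By this rule 4 of the 10 genes were bound, with 17 of the 9766 optimal summits among them.

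The material was whole wandering larvae of instar 3, males and females together, of the strain foxo-MiMIC-GFP. These flies carry an intronic eGFP exon in the foxo gene and produce a fusion of foxo and eGFP, which was precipitated with an antibody against GFP (the labels' antibody field names foxo, the tagged target). The 3 biological replicates form 1 group. No untagged flies, input library or second condition was analysed here, so binding cannot be compared between conditions and no background level can be given beside it. In whole animals, binding in few cells and weak binding in many cannot be told apart either.

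Forkhead proteins read short AT-rich sites whose core is often written as GTAAACA, and FOXO proteins carry insulin and stress signals to the genome through such sites. Some known roles of the family members studied here follow. The gene fkh, which gave the family its name, governs the salivary gland and the gut ends. CHES-1-like and jumu, both of the FOXN type, act in cardiac progenitors of the embryo, and jumu also in the division of neuroblasts. FoxK and FoxL1 are the fly counterparts of mammalian FOXK and FOXL1, and FoxP acts in the nervous system. The neighbouring pair slp1 and slp2 belongs to the segmentation genes, croc of the FOXC type acts in head development, and bin of the FOXF type specifies visceral muscle.

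The windows of the 7 strongest summits, those ranked 1000 or better in the optimal list, are shown first. This limit was chosen after the values were seen. Of the 7 summits 6 held a forkhead core, as did 2 of the other 10, which are not printed. Each window is 207 bases of the plus strand of dm6, centred on the summit, from the NCBI Release 6 reference. Capitals mark matches to the core NTAAANA, with A or G as its first letter and C or T as its sixth (4 forms), on either strand. A match is a description of the letters and not a binding site. The 5 from CHES-1-like and the 1 from jumu lie in introns, and that of fkh lies upstream of the gene. Numbers before the coordinates are the distance in bp of the summit from the 5′ end of the gene.
CHES-1-like, 2385 bp (chrX:7706897-7707103): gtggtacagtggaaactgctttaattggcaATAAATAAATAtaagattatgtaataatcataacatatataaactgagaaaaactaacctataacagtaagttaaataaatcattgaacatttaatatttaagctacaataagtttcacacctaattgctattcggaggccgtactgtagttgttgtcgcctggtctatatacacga
CHES-1-like, 6262 bp (chrX:7703020-7703226): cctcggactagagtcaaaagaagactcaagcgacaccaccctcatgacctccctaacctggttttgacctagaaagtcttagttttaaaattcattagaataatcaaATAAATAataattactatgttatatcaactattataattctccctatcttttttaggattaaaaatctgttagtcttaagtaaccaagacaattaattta
CHES-1-like, 10958 bp (chrX:7698324-7698530): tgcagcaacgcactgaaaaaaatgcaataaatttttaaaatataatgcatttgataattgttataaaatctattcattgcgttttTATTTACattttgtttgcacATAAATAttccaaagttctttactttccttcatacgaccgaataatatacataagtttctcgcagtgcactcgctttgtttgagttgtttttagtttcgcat
CHES-1-like, 12310 bp (chrX:7696972-7697178): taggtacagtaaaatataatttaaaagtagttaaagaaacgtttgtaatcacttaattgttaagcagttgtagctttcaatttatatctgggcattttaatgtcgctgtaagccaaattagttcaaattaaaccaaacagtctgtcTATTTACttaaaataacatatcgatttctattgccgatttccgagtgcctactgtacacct
CHES-1-like, 3758 bp (chrX:7705524-7705730): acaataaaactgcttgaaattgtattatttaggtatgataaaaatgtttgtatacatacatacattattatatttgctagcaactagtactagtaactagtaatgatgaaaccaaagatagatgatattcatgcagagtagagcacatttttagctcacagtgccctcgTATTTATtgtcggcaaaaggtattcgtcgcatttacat
jumu, 6904 bp (chr3R:10356983-10357189): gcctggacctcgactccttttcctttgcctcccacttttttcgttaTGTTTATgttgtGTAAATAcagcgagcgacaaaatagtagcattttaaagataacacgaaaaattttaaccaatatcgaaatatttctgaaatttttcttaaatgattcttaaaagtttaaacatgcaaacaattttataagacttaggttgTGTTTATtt
fkh, 246 bp upstream (chr3R:28585407-28585613): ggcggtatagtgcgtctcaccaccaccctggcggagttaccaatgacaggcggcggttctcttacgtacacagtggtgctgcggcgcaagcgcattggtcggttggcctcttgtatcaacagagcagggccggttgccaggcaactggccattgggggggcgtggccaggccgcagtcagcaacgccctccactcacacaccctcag

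The bound genes were CHES-1-like with 12 summits, jumu with 3, and fkh and FoxK with 1 each. The unbound genes were FoxP, FoxL1, slp1, slp2, croc and bin. The share of 4 in 10 (Wilson 95% interval 16.8 to 68.7%) stood at the background, since 40.0% of all 13945 protein-coding genes were bound by the same rule. Long genes are bound more often, and the shares of bound genes in the length deciles of the 10 genes sum to 4.8 genes. Binding close to a transcription start site was found at 3 of the 10 (fkh, FoxK and CHES-1-like), against 32.8% of protein-coding genes. The number of bound forkhead genes was thus no result in itself, and the values below describe where and how strongly the 4 were bound.

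**Figure D1:**
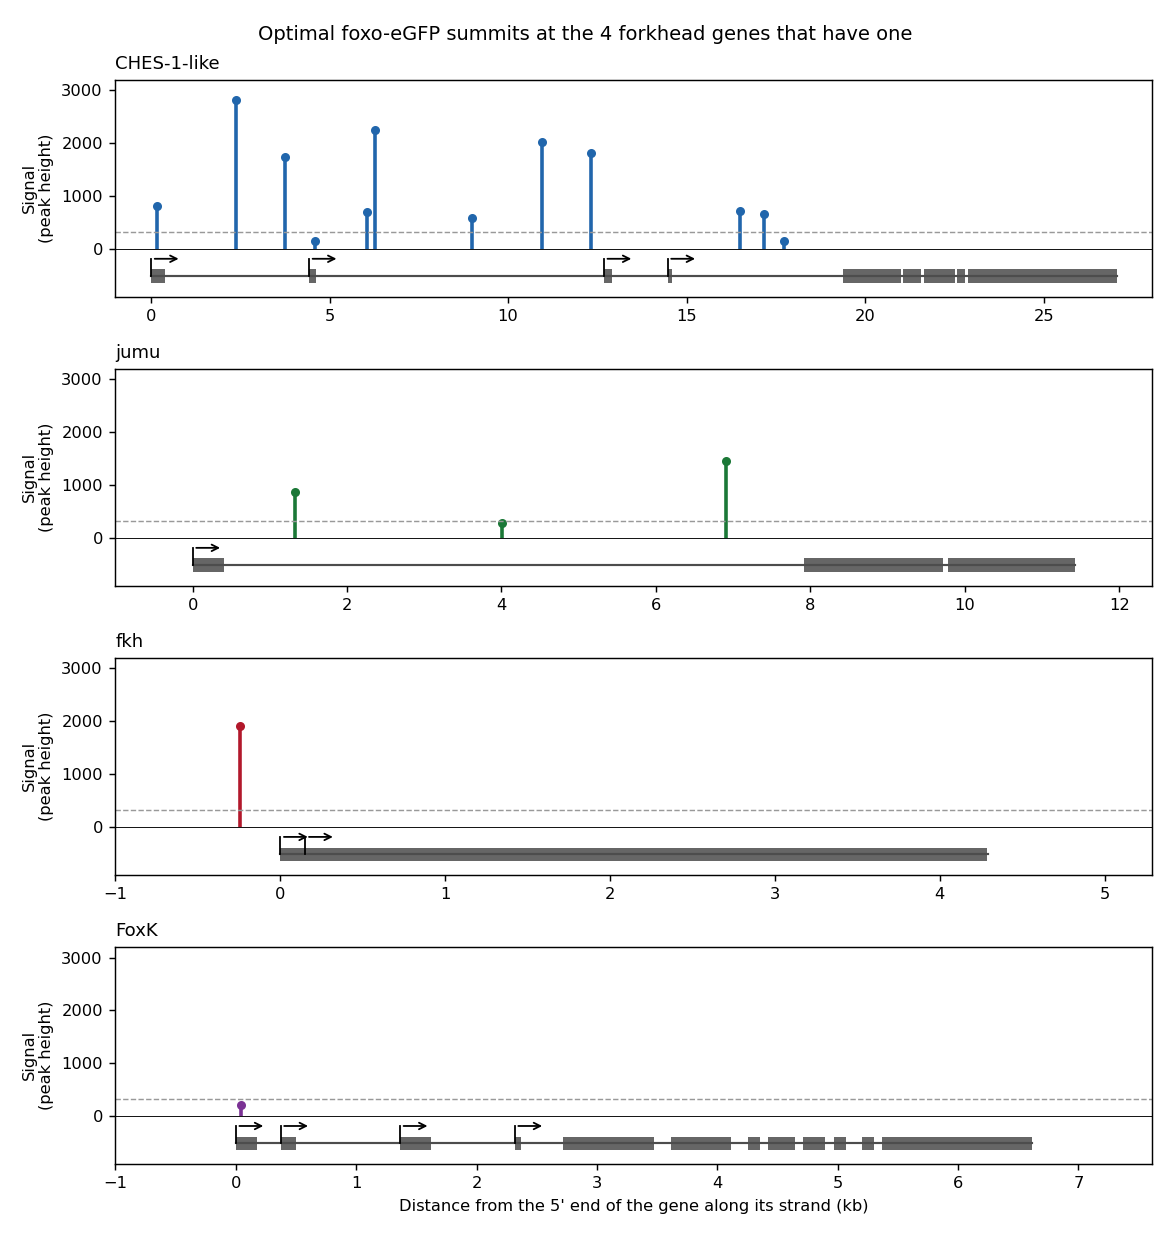
Signal of every optimal summit (vertical lines, the authors' peak height in the optimal list) against its distance from the 5′ end of the gene in kb, for the 4 bound genes. Grey boxes are exons, arrows are annotated transcription start sites and the dashed line is the median signal of all optimal peaks, 321; the summits of CHES-1-like and jumu lie 5′ of the exons at the 3′ end of each gene, and the highest reaches 2821.

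CHES-1-like held most of the binding. The gene spans 27048 bp of the minus strand of X (dm6 7682338 to 7709385) and has 4 transcription start sites. Its 12 summits lay between 170 and 17734 bp from the 5′ end, 228 to 4185 bp apart with a median gap of 1373 bp. The last 9313 bp, which hold every exon apart from the first exons of the 4 start sites, had none. Of all protein-coding genes 67 had 12 or more summits, and all of these belonged to the longest decile of gene length, where they made up 4.80%. Per kb of gene and flanks CHES-1-like had 0.413 summits, a density reached by 19 of the 1395 genes in that decile (1.36%), whose median was 0.0555.

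The highest summit in CHES-1-like had a signal of 2821 and rank 100 among the 9766 optimal peaks. Its peak (X, 7706409 to 7707301) lay in the first intron of transcript RC, 2037 bp upstream of the start site of transcript RB. It ranked 96 in replicate 1, 96 in replicate 2 and 178 in replicate 3 (123 ± 47.3, SD, n = 3). At 893 bp it was also broad, and 46 of the 9766 optimal peaks were as wide or wider. The noncoding gene lncRNA:CR43287 lies in the same intron on the other strand. Its start at 7707775 is nearer to this summit (7707000) than that of RB, so the summit cannot be assigned to CHES-1-like by position alone.

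The next 4 summits of CHES-1-like had signals of 1733 to 2252. The second (X, 7702893 to 7703352, signal 2252) ranked 209, 180 and 240 in replicates 1, 2 and 3. The third (7698167 to 7698633, signal 2018) ranked 227, 283 and 302. These replicate lists thus placed each of them near the top of its 30000 regions. The fourth (7696862 to 7697307, signal 1818), 371 bp upstream of the start site of transcript RA, ranked 248, 371 and 404. The lowest of the 5 (7705290 to 7705847, signal 1733), 664 bp upstream of the start site of RB, ranked 396, 381 and 351. The 5 summits came in the same order in replicates 1 and 2, while in replicate 3 the last pair changed places.

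Of the other 7 summits in CHES-1-like, 4 were in the top 9766 peaks of every replicate. One of these (signal 817, ranks 1893, 1363 and 1104) lay in the 5′ UTR of transcript RC, 170 bp downstream of its start. The other 3, in introns, had signals of 719.7, 663 and 587 and ranked 1418 to 3408 in the replicates. A summit of signal 707 stood 228 bp from that of signal 2252, with overlapping peaks, and its match ranked 17717, 4479 and 2267 in replicates 1, 2 and 3. The lowest pair, of signal 155 in the 5′ UTR of RB and of signal 153 in an intron, ranked 9543 and 9617 of 9766, close to the end of the optimal list. In this gene 4 of 12 summits lay within 1000 bp of one of its own start sites, and the start of transcript RD had none that near.

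All 3 summits of jumu lay in its first intron, of 7511 bp. The gene spans 11431 bp of 3R (10350182 to 10361612, plus strand) and has 1 annotated start site, 1329 bp from the nearest summit. The highest summit (10356564 to 10357367, signal 1459, rank 525) lay 6904 bp into the gene and ranked 723, 648 and 273 in replicates 1, 2 and 3 (548 ± 241, SD, n = 3). Its peak was 804 bp wide, a width reached by 0.717% of optimal peaks. The next (10351204 to 10351688, signal 874) ranked 1628, 1085 and 1399, and the lowest (10353961 to 10354420, signal 282) ranked 6454, 4817 and 10673. Replicate 3 was thus the one in which the strongest jumu summit stood highest and the weakest fell below the top 9766. Both jumu and CHES-1-like had 3 or more summits, as did 8.00% of protein-coding genes. In jumu's own length decile 18.6% of genes did.

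fkh carried a single strong summit just upstream of the gene. The gene spans 28580976 to 28585264 of 3R on the minus strand, and the peak (28585250 to 28585684, signal 1915, rank 282) had its summit 246 bp upstream of the start of transcript RD and 398 bp upstream of the start shared by the other 4 transcripts. It ranked 178 in replicate 1, 725 in replicate 2 and 174 in replicate 3 (359 ± 317, SD, n = 3). Replicate 2 thus placed it lower than the others did, while its matched summits lay 1 to 6 bp from the optimal one in all 3. Among the 5572 bound protein-coding genes 403 had a highest signal as large (7.23%), against 147 for CHES-1-like, 689 for jumu and 4912 for FoxK. The noncoding gene lncRNA:CR43126 starts at 28586048 on the other strand, so the fkh summit at 28585510 lies between both genes. By position alone this summit cannot be assigned to either.

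FoxK had a weak summit at a start site that lies close to that of a neighbour. The gene spans 11114169 to 11120783 of 3L on the minus strand. The peak (11120512 to 11120971, signal 209.8, rank 7363) had its summit in the 5′ UTR, 41 bp downstream of the start of 5 of the FoxK transcripts. The same summit lay 105 bp upstream of the start of mRpL2, a mitochondrial ribosomal protein gene on the other strand, so it cannot be assigned to either gene by position. It ranked 7020, 9498 and 10350 in replicates 1, 2 and 3 (8956 ± 1729.9, SD, n = 3), which leaves it outside the top 9766 peaks of replicate 3. FoxK was the only one of the 4 genes with no summit in the top peaks of all replicates.

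**Figure D2:**
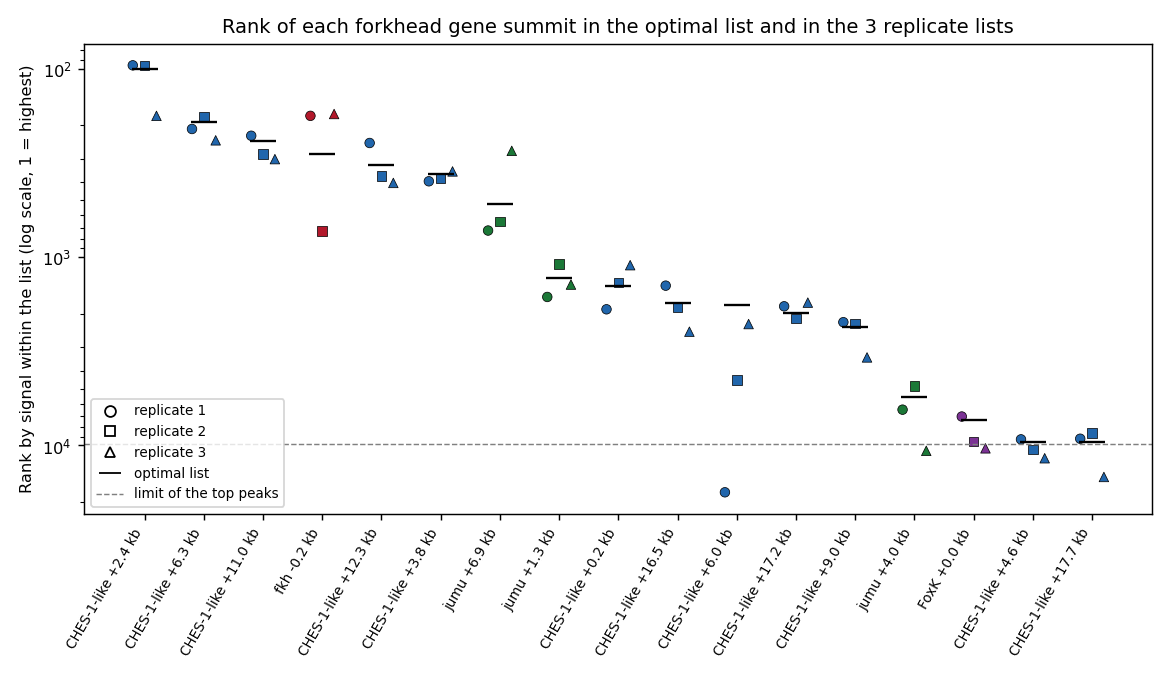
Rank of each of the 17 summits by signal (log scale, 1 is the highest) in the optimal list (black bars) and in replicates 1 (circles), 2 (squares) and 3 (triangles), labelled by gene and distance from its 5′ end and coloured by gene. The dashed line marks rank 9766; 12 summits lie above it in all replicates, and the match of 1 CHES-1-like summit in replicate 1 is at rank 17717.

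Across the 17 summits the replicates gave similar orders. All 17 had a summit within 100 bp in each full replicate list, as 87.8% of all optimal peaks did, and the matched summits lay a median of 14 bp and at most 74 bp away. In the top 9766 peaks of all 3 replicates 12 of 17 were found, against 65.2% of the optimal summits. Spearman's rho of the ranks over these 17 sites was 0.924 for replicates 1 and 2, 0.895 for replicates 1 and 3 and 0.904 for replicates 2 and 3. The 17 sites share 4 genes and the same libraries, so these are descriptions. Of the 17, 13 had a signal above the median of all optimal peaks.

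The summits lay mainly in introns. Introns held 13, 5′ UTRs held 3 and intergenic sequence 1, against 50.5%, 8.08% and 36.9% of all optimal summits. The 17 were taken only inside the genes or within 1000 bp of them, which leaves out distant intergenic summits that the 36.9% includes. CHES-1-like alone gave 12 of the 17. The difference in shares is therefore no result about the family. Within 1000 bp of a protein-coding start site lay 6 of the 17, against 46.9% of the optimal summits. For all 17 the nearest protein-coding start site belonged to the forkhead gene itself, which the limit of 1000 bp favours.

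**Figure D3:**
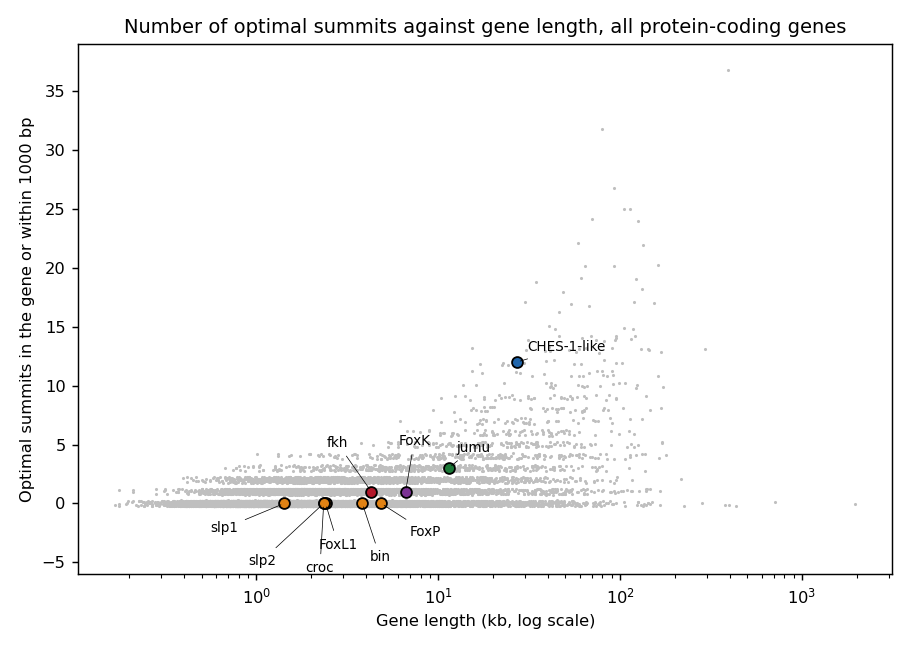
Number of optimal summits in a gene or within 1000 bp of it against gene length in kb (log scale). Grey dots are all protein-coding genes, spread slightly up and down so that they can be seen, and coloured dots are the 10 forkhead genes; CHES-1-like with 12 summits lies in the upper part of genes of its length, and the 6 unbound genes are at 0 and shorter than 5 kb.

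The forkhead core lay at the strongest intronic summits, of CHES-1-like and jumu, and not at fkh. A core lay within 100 bp of 8 of the 17 summits, against 36.8% of all optimal summits. It lay in 5 of the windows 500 bp to the left and 4 of those 500 bp to the right, against 26.1% and 26.3% over all optimal summits. In the sequences printed above, the strongest CHES-1-like summit has a pair of overlapping matches 70 and 66 bp to its left, and the summit 10958 bp from the 5′ end has matches 15 bp to its left and 5 bp to its right. The jumu window has 3 matches, 54 and 42 bp to the left and 98 bp to the right. Of the 7 summits ranked 1000 or better 6 held a core, and of the other 10 only 2 did, a division chosen after these values were seen. Over all optimal peaks the same shares were 41.6% and 36.25%.

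Base composition moved with the core. GC content in 201 bp around the summit was 27.9 to 30.8% at the 5 strongest CHES-1-like summits and 29.4% at the strongest jumu summit, against a mean of 36.4% ± 7.38 (SD, 9766 summits). Below 32% GC, 8 of 11 summits held a core, against 48.5% of the 2879 optimal summits in that range, and at 32% or above none of 6 did, against 31.9% of 6887, a limit also chosen after the values were seen. The part of base composition in the difference was not tested. The fkh summit was far from the rest at 62.7% GC, a level reached by 0.0819% of optimal summits, and its window holds no core. That of FoxK, at 45.3% GC, held none either. The preferred form GTAAACA lay at 1 of the 17 summits, against 5.73% of all optimal summits. That was one of the weakest (CHES-1-like, signal 155, rank 9543), with the match 64 bp to its right in the 5′ UTR of RB.
CHES-1-like, site on the minus strand in capitals (chrX:7704855-7704881): tttttgcttaTGTTTACttattgcagt

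**Figure D4:**
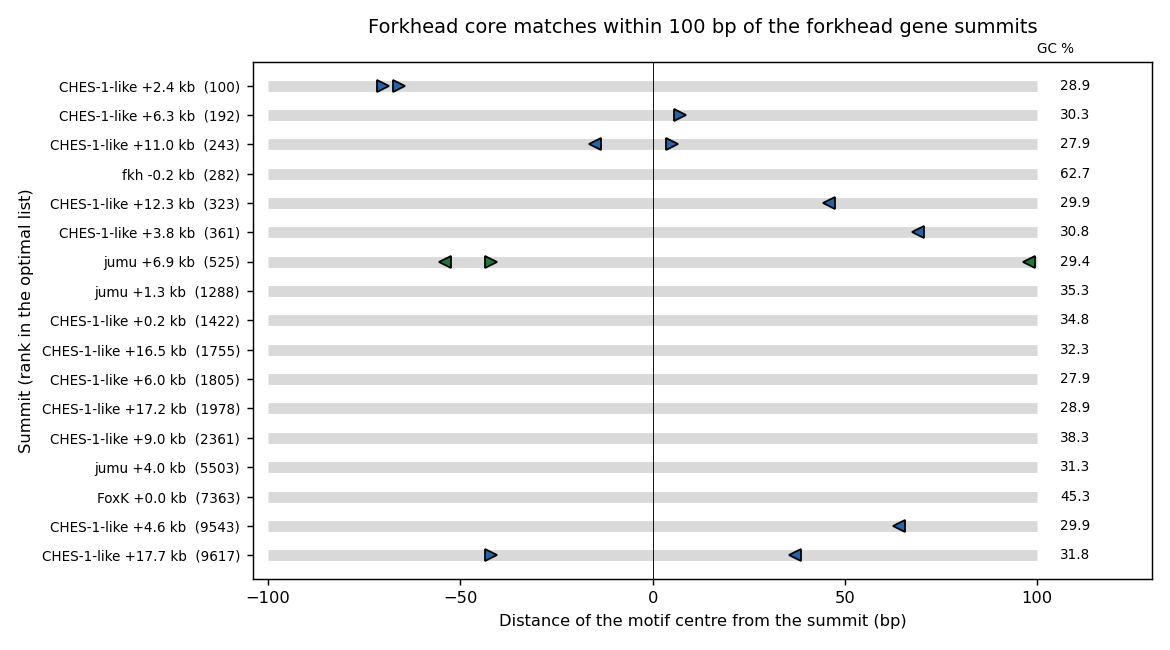
Matches to the forkhead core within 100 bp of each of the 17 summits (triangles, pointing along the strand of the match), with the distance from the summit in bp on the x axis and the summits ordered by rank in the optimal list. GC content of the window in percent stands at the right; the 6 windows with a match among the 7 strongest summits have 27.9 to 30.8% GC, and the fkh window has 62.7%.

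Motifs of broadly active promoters lay at few of all optimal summits, though more often than in the windows beside them, and were absent from the 17. Neither the DRE (TATCGATA, the element of Dref) nor Ohler 1 (GGTCACAC) lay within 100 bp of any of the 17 summits on either strand. Among all optimal summits 3.05% held the first and 2.32% the second. In their left and right windows 500 bp away, the first lay in 0.543% and 0.440%, and the second in 0.512% and 0.573%. At summit shares as low as 3.05% and 2.32%, no match among 17 summits is no result in itself. No match says only that these letters are not in the windows.

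Among the 6 unbound genes, 3 had no region in any list and 3 had weak ones. FoxP (3R, 9726020 to 9730872), FoxL1 (3L, 4018878 to 4021279) and slp1 (2L, 3825675 to 3827099) had no summit in the gene or within 1000 bp in the pooled list or in any replicate's 30000 regions. That is 3 of all 10 genes, bound or not, against 30.5% of all protein-coding genes, so their number is no result in itself. The nearest optimal summit to FoxP lay 21234 bp downstream and that to FoxL1 35239 bp upstream. At slp2 (2L, 3836840 to 3839185) the pooled list had 1 region, of rank 29600, and replicate 1 alone had 1, of rank 29342. At bin (3L, 6990622 to 6994447) the highest pooled region ranked 28313 and those of replicates 1 and 2 ranked 22180 and 24898, while replicate 3 had none. At croc (3L, 21474133 to 21476479) only replicate 2 listed a region, of rank 19997. These lists hold background regions by design, and a region so low in them is no call.

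Several of the unbound genes had optimal summits a short way outside the window. At bin a pair of summits stood upstream, at 1216 bp (6989343 to 6989568, signal 539) and 1415 bp (6989025 to 6989317, signal 705), and bin was their nearest protein-coding gene. The nearer ranked 4218, 3026 and 1342 in replicates 1, 2 and 3. The farther ranked 2374 and 1890 in replicates 1 and 2, and in replicate 3 a single peak of rank 1342 spanned both. A wider limit would thus count bin as bound: it was the nearest gene outside the limit of 1000 bp, and fkh, at 246 bp, was the only one inside it with no summit in the gene itself.

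A single summit stood between slp1 and slp2, the tandem segmentation genes. Its peak (2L, 3832342 to 3832677, signal 651, rank 2032) lay 5439 bp downstream of slp1 and 4302 bp upstream of slp2, and it ranked 2540, 1833 and 2171 in the replicates (2181 ± 354, SD, n = 3). It was in the top peaks of all 3. A forkhead core lay at this summit and at the pair upstream of bin, against 36.8% of all optimal summits. At croc a weaker summit lay 3414 bp upstream (21479663 to 21480122, signal 232), ranking 4845, 11067 and 7333. Beside the bound genes, fkh had a further summit at 1961 bp upstream (28586995 to 28587454, signal 246) in an exon of the noncoding gene lncRNA:CR43126, and CHES-1-like 1 at 1590 bp upstream (7710885 to 7711087, signal 288). This further summit of fkh held a core, and those beside croc and CHES-1-like held none.

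**Figure D5:**
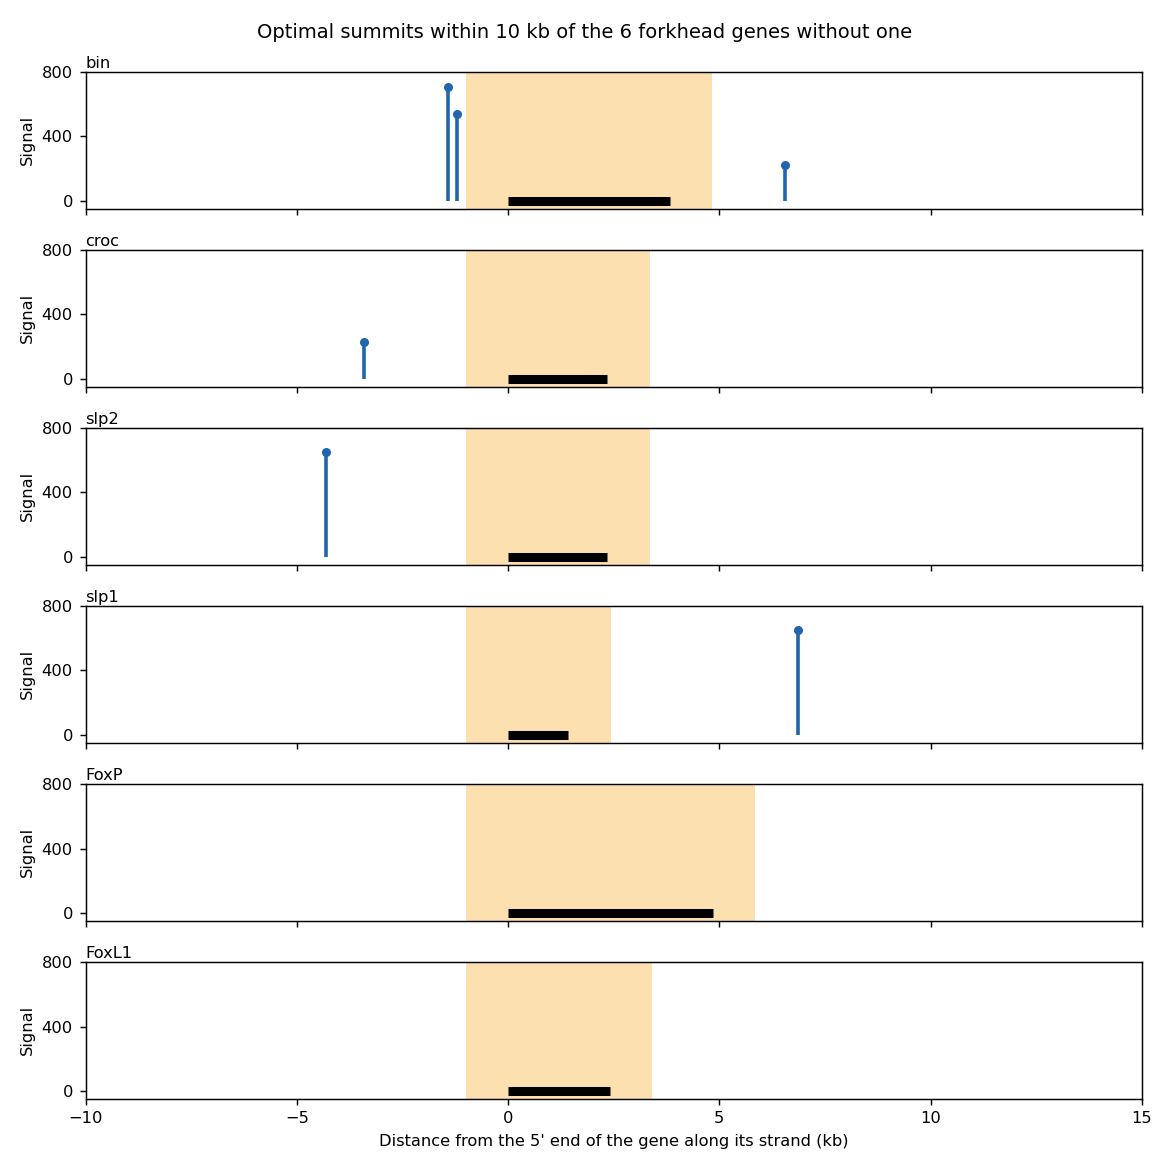
Signal of the optimal summits within 10 kb of each of the 6 unbound genes (blue lines, the authors' peak height) against the distance from the 5′ end of the gene in kb. Black bars are the genes and shading is the gene with 1000 bp on each side; no summit falls in the shading, bin has a pair just upstream of it, and FoxP and FoxL1 have none in view.

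Of the 8 forkhead genes of the annotation that were listed beside these 10, 2 were bound, by the same rule and also at a start site. They were foxo itself, with 5 summits and a highest signal of 475 (rank 3144), and fd96Ca, with 1 of signal 219.5 (rank 7080). The others, fd3F, fd19B, fd59A, fd96Cb, fd102C and CG32006, had none, which makes 6 bound among 18 forkhead genes. Of all protein-coding genes 40.0% were bound by this rule and 32.8% near a start site. With so few genes, these counts are no result in themselves. The highest summits of CHES-1-like, fkh and jumu stood above that of foxo in the optimal list, a comparison of single peaks with no test.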

How the data were processed

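Per the labels, chromatin of whole larvae was sonicated and fragments selected by size. Per the deposited file listings, the authors made relaxed lists (30000 regions each, background included) from each replicate and from the pooled replicates, and 1 optimal list thresholded on the irreproducible discovery rate, on dm6. The sources used here give no aligner, peak caller or threshold. The signal of each peak is the authors' deposited peak height, of unknown normalization, and was used only to describe and rank peaks within 1 list. The other deposited column used holds the summit's offset in bp from the peak start. By signal, the optimal peaks were the top 9766 in the pooled list. The dm3 lists were not used. Sequencing depth is unknown from these files.

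Genes came from the Ensembl release 115 annotation and sequence from NCBI Release 6, the assembly of dm6, where all peaks fell within the arms. A replicate summit was matched within 100 bp, taking the highest, and "top" means the 9766 highest of a list. Python 3.11.15, pandas 2.3.3, numpy 2.4.6, scipy 1.17.1 and matplotlib 3.10.9 were used. The calling rules were tested on simulated data. There being 1 group, no test was run; counts stand beside the same rule over all genes or peaks, and the interval covers counting error only. All 10 genes are named, the bound ones with their highest summit and all summits in the top peaks of every replicate, the others with low regions of the relaxed lists and the nearest optimal summit. The genes and lists were chosen with earlier results of these data known. The alternatives were other windows, matching distances, list sizes, single replicates and motif windows.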

Additional observations from a re-analysis of the deposited data

How the results depend on the processing

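Of 50 alternative values, 41 stayed close to the reported one, that is within 1.5 times for counts and within 1 SD of the replicate ranks for ranks. The number of bound genes was 3 to 5 for windows of 0 to 2000 bp, in single replicates and in the upper part of the list, and 3 to 4 when peaks had to be matched in both remaining replicates after leaving out 1. It rose to 7 when every summit counted for the gene with the nearest protein-coding start at any distance, an alternative chosen after seeing the data, which added bin, croc and slp2. Genes bound near a start site rose from 3 to 5 with a distance of 2000 bp, which takes in bin and jumu. Summits in the top peaks of both remaining replicates numbered 12 to 15 when 1 replicate was left out, against 12 for all. A core lay within 50 bp of 5 summits (22.1% of all optimal summits), within 100 bp of 8 and within 200 bp of 12 (54.95% of all), while the preferred form alone lay at 1. Ranks that differed by more than 1 SD from the optimal list were those of fkh in replicate 2 (725), FoxK in replicates 2 and 3 (9498 and 10350), jumu in replicate 3 (273) and CHES-1-like in replicate 3 (178). The cause was not tested. No depth is known for these lists, and no paired analysis was possible because there is 1 group.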

Other observations

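The printed windows drew attention to another short word. ACAGTG, read on either strand, had its centre within 100 bp of 8 of the 17 summits, but in none of the left windows (500 bp away) and in 2 of the right ones. It was found at the fkh summit, at 1 of the 3 in jumu and at 6 of the 12 in CHES-1-like, where the summit of signal 587 has 4 copies and that of signal 719.7 has 2. The word was picked after these sequences were seen, so the count of 8 has no weight of its own.

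The same word was more frequent at optimal summits in general. It lay at 18.5% of them, against 8.01% of left and 8.11% of right windows. Among the top 9766 peaks of replicates 1, 2 and 3 it lay at 18.6%, 19.2% and 17.2% of summits, against 8.04%, 8.00% and 7.80% of left windows. Peaks of the highest signal decile held it at 24.0% and those of the lowest at 14.9%, while their left windows held it at 10.1% and 6.56% and their right windows at 8.50% and 6.76%. The shares were close to each other within 1000 bp of a protein-coding start site (18.1%) and further away (18.9%). By the ratio of summit windows to left windows that contain a word, ACAGTG took place 3 of 2080 hexamers at 2.34, behind ACACTG (2.45) and AGTGTA (2.42), with a median ratio of 0.869 over all hexamers. No factor was assigned to these words, and base composition was not taken into account.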
